A study of Mus musculus with 36 samples.

Results

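The genes described here are those whose islet levels moved the same way with a high-fat diet in Gαz knockout (KO) and wild-type (WT) mice. The effect measured was the mean of both high-fat groups minus the mean of both control-diet groups, and a gene was counted as shared when this effect passed an adjusted p of 0.05 and had the same direction in KO and WT islets. Of 14860 genes tested, 535 were shared. Shared thus means a called mean effect with 1 sign in both genotypes, and does not say that the gene passed a test in each. The question was which genes moved the same way with a high-fat diet in islets that have Gαz, a G protein subunit that lowers cAMP, and in islets that lack it. Pancreatic islets are clusters of endocrine cells in which beta cells release insulin, alpha cells glucagon and delta cells somatostatin. A diet rich in fat raises the demand for insulin, and beta cells answer by secreting more and, in mice, by adding mass.

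The samples were hand-picked islets of male C57BL/6N (B6N) mice, 1 array per mouse, from 3 KO HFD, 4 WT HFD, 5 KO CD and 5 WT CD mice. KO mice lack 1 protein-coding exon of Gnaz, the gene of Gαz, in all cells, so the genotype is not limited to beta cells. HFD mice ate a diet with 45 kcal% fat and CD mice one with 10 kcal% fat for 16 weeks from 11 weeks of age by the methods, and the sample labels give an age of 6 months. The growth protocol in the labels instead gives 37 to 40 weeks of age at isolation, so the age and the time on diet are not settled. A further KO HFD array, islet 11, was left out: the methods set aside a KO HFD array for anomalies without naming it, and an earlier treatment of these data took it to be islet 11. With that array included, 242 shared genes were higher and 339 lower on HFD, and 425 of the 535 remained. Values are log2 levels from exon arrays, each array centred on its median, and errors after ± are standard errors of the limma fit. Adjusted p-values are from limma with Benjamini-Hochberg adjustment over all genes.

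Gnaz checked the genotype labels: its level was 10.16, 10.11 and 10.21 in KO HFD islets and 11.24, 11.1, 11.06 and 11.03 in WT HFD islets, against 10.21, 10.5, 10.28, 10.38 and 10.28 in KO CD islets and 11.16, 11.12, 11.09, 11 and 11.09 in WT CD islets. Every KO array lay below every WT array, and the diet effect was -0.079 ± 0.0443 (adjusted p = 0.242). Transcripts of insulin 2, glucagon, somatostatin, pancreatic polypeptide and amylin were near the top of the array's range in all 4 groups. So were 13 measured digestive enzymes of acinar cells, the exocrine cells that surround islets: their mean level was 13.9 to 14.2 in KO HFD, 13.1 to 13.5 in WT HFD, 13.4 to 13.8 in KO CD and 13.7 to 14.0 in WT CD islets. That mean was higher in every KO HFD array than in every KO CD array and lower in every WT HFD array than in every WT CD array. None of the 13 enzymes moved the same way in both genotypes, against 46.8% of all genes. All 13 passed the test of the genotype by diet interaction, against 14.8% of all genes. With the enzymes' mean as a covariate, 180 genes were higher and 176 lower, and 291 of the 535 remained. Of 89 called genes examined singly, 15 lost their call with this covariate: Pdia4, Hspa9, Fads1, Ghsr, Oat, Lpl, Stmn2, Ifit1, Igfbp5, Psmd8, Txnip, Grb7, Ift43, Psma1 and Irx1. KO HFD 10 had the highest mean of 21 other acinar cell genes, 11.7, against at most 11.05 on any other array. Without it 246 genes were higher and 397 lower, and 369 of the 535 remained. Macrophage and leukocyte genes stood apart on 2 control-diet arrays, WT CD 14 and KO CD 13, with means of 9.60 and 9.39, and no other array exceeded 9.02. Without those 2 arrays 150 genes were higher and 458 lower on HFD in both genotypes.

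**Figure D1:**
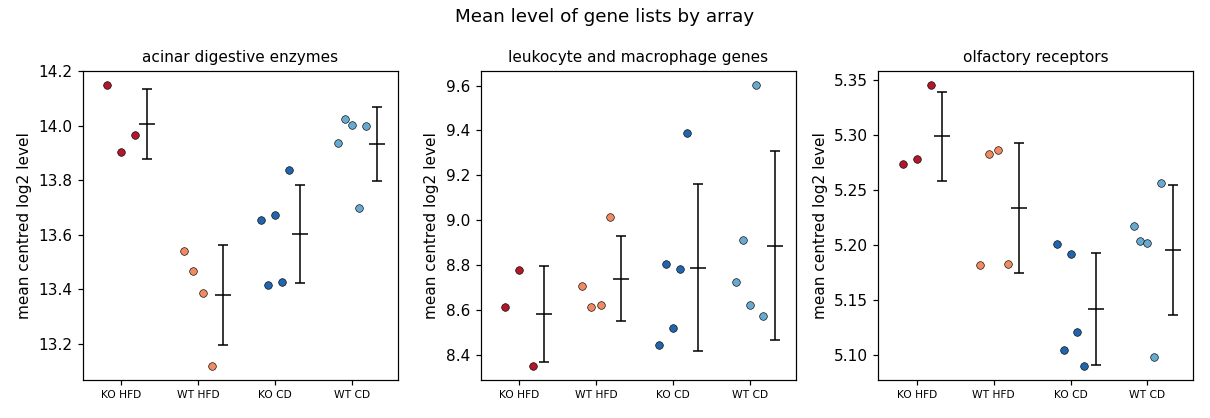
Mean centred log2 level of 3 gene lists on each array (points), with the group mean and SD (bars), for KO HFD, WT HFD, KO CD and WT CD islets. Acinar enzymes ran from 13.9 to 14.2 in KO HFD and from 13.1 to 13.5 in WT HFD islets, macrophage and leukocyte genes were highest in WT CD 14 (9.60), and olfactory receptor genes lay between 5.09 and 5.35.

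The diet effect was called for 616 genes, 4.15% of those tested, with 222 higher (1.49%) and 394 lower (2.65%) on HFD. Of these, 212 had a positive difference in both genotypes (1.43%) and 323 a negative one in both (2.17%), while 81 had opposite directions. The counts of list members given for shared genes stand against these shares of 1.43% and 2.17%, and counts of called members against 4.15%. The split of the 535 shared genes, 39.6% higher, depended on the scale: it was 5.01% on the deposited values without centring and 84.3% when arrays were centred on the genes tested. Without centring, the median gene had a diet difference of -0.18 in KO islets and 0.012 in WT islets, so changes are reported relative to the array median. The changes were small. No shared gene reached a 2-fold difference, 5 of the 212 and 8 of the 323 passed 1.5-fold, and the median log2 difference was 0.20 for the higher and -0.26 for the lower genes.

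The effect was mostly larger in KO islets. KO HFD versus KO CD called 4055 genes (27.3%), whereas WT HFD versus WT CD called 24 (0.162%). The effect was larger in KO islets for 181 of the 212 higher genes, with medians of 0.27 in KO and 0.13 in WT islets. It was larger in KO islets for 310 of the 323 lower genes, with medians of -0.41 in KO and -0.10 in WT islets. Both counts partly follow from the choice of genes by their mean effect. Over all genes the differences had an SD of 0.22 in KO and 0.15 in WT islets, so KO changes weigh more in that mean. The interaction was called for 2194 genes (14.8%) and for 131 of the 535 shared genes. A stricter test that asked each gene to pass in both genotypes called no gene higher (0%) and none lower (0%) by limma, with 237 genes at an unadjusted p under the same threshold. Over all genes, the diet difference had the same sign in both genotypes for 46.8%.

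**Figure D2:**
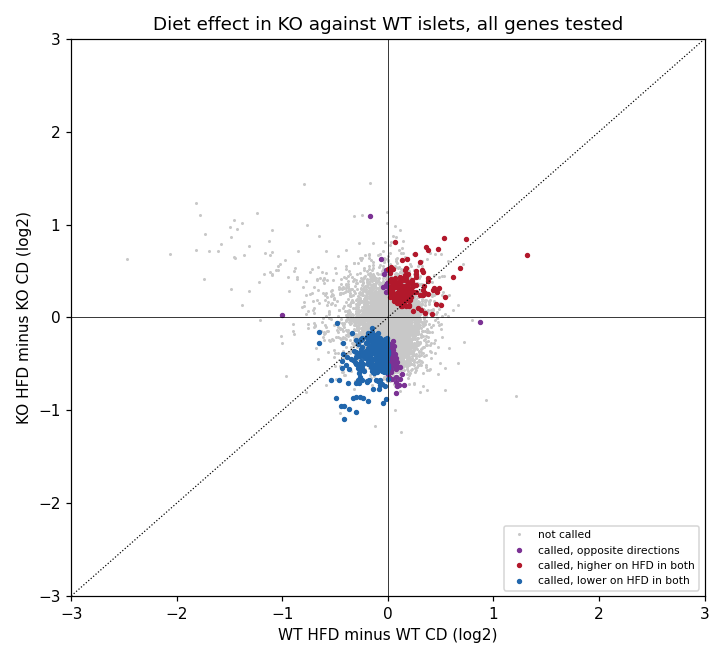
Diet difference (log2, HFD minus CD) in KO islets on the vertical axis and in WT islets on the horizontal axis for 14860 genes, with 1 gene outside the axes. The 212 higher and 323 lower genes are in colour, 81 called genes with opposite directions are purple, and most coloured points lie farther from 0 on the KO axis.

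The arrays of the diets did not overlap within either genotype for 31 genes higher (0.209%) and 15 lower (0.101%) on HFD, and 24 and 13 of these were shared. All 7 HFD arrays lay apart from all 10 CD arrays for 13 genes higher and 3 lower on HFD. The 3 were Grb10, Vcan and Il6st. For Il6st the gap was less than the rounding, with WT HFD 7 and KO CD 2 both at 10.74.

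Grb10 had the smallest p-value of all genes for the diet effect, though not the largest difference. It encodes an imprinted adaptor protein that binds the insulin and IGF-1 receptors and restrains their signalling. Its level was 9.69, 9.65 and 9.65 in KO HFD islets and 9.71, 9.39, 9.47 and 9.65 in WT HFD islets, against 10.03, 10, 10.13, 10.06 and 10.22 in KO CD islets and 9.83, 9.79, 9.78, 9.82 and 9.86 in WT CD islets. All 7 HFD arrays lay below all 10 CD arrays. The log2 difference was -0.34 ± 0.0451 (adjusted p = 0.00963), a level 1.27-fold lower on HFD, with -0.42 ± 0.0664 in KO islets and -0.26 ± 0.061 in WT islets (± SE). The interaction was not called for Grb10 (adjusted p = 0.235).

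Of 31 measured genes of insulin and IGF signalling, 3 were shared and lower, against 2.17% of all genes, and none was higher, with a list median of -0.0091 against -0.018 over all genes. Besides Grb10 these were Grb7, a related adaptor, at -0.19 ± 0.0506 (adjusted p = 0.049), and Igfbp5, an IGF-binding protein, at -0.34 ± 0.0911 (adjusted p = 0.0471). Both calls were lost in most omissions of 1 array: Grb7 was called in 5 of 17, those of KO HFD 10, WT HFD 7, KO CD 1, KO CD 13 and WT CD 14, and Igfbp5 in 2 of 17, those of WT HFD 7 and KO CD 1. Among 19 imprinted growth genes, Grb10 and Sgce, the gene of epsilon-sarcoglycan, were shared and lower, and Sgce had a difference of -0.46 ± 0.103 (adjusted p = 0.0332), called in 9 of 17 omissions.

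Rgs2 had the largest rise. It encodes a regulator of G protein signalling that speeds the switch-off of Gq. Its level was 12.32, 13.15 and 12.93 in KO HFD islets and 12.8, 12.91, 13 and 12.79 in WT HFD islets, against 12.55, 12.2, 12.26, 11.31 and 12.28 in KO CD islets and 10.75, 10.93, 11.56, 12.19 and 12.34 in WT CD islets. The WT CD arrays alone spread over more than 1 log2 unit, and KO HFD 10 lay among the KO CD arrays. The difference was 1.00 ± 0.225 (adjusted p = 0.0349), just under 2-fold higher on HFD. It was 0.68 ± 0.331 in KO islets (adjusted p = 0.133) and 1.32 ± 0.304 in WT islets (adjusted p = 0.101), called in neither alone. The effect averaged over the genotypes was called in 8 of 17 omissions of 1 array. The call was lost without KO HFD 17 or 18, WT HFD 8, 9 or 16, KO CD 2 or 12, or WT CD 5 or 6.

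Per1, a repressor of the circadian clock that also responds to glucocorticoids and cAMP, had levels of 11.13, 11.42 and 11.42 in KO HFD islets and 11, 11.07, 11.2 and 10.93 in WT HFD islets, against 10.96, 10.79, 10.76, 10.46 and 10.68 in KO CD islets and 10.59, 10.55, 10.8, 10.89 and 10.9 in WT CD islets. The diets did not overlap within either genotype. The difference was 0.45 ± 0.0747 (adjusted p = 0.0129), with 0.59 ± 0.11 in KO islets and 0.31 ± 0.101 in WT islets. Per1 was the 1 of 14 measured clock genes that was called, and the median of that list was 0.098. Pim3, a serine/threonine kinase, had levels of 11.12, 11.24 and 11.02 in KO HFD islets and 10.63, 10.6, 10.7 and 10.4 in WT HFD islets, against 10.66, 10.37, 10.46, 10.29 and 10.44 in KO CD islets and 10.2, 10.29, 10.33, 10.25 and 10.57 in WT CD islets. KO HFD arrays were the highest, and WT HFD arrays overlapped WT CD 15. Its difference of 0.47 ± 0.0635 (adjusted p = 0.00963) was larger in KO than in WT islets, at 0.69 ± 0.0936 in KO islets and 0.25 ± 0.0859 in WT islets (interaction adjusted p = 0.0346). Bambi, a decoy receptor that dampens TGF-beta and BMP signals, differed by 0.61 ± 0.0989 (adjusted p = 0.0129). Its level was 10.07, 10.75 and 10.83 in KO HFD islets and 10.52, 10.88, 10.76 and 10.6 in WT HFD islets, against 10.3, 9.89, 9.97, 9.91 and 10.02 in KO CD islets and 9.79, 10.12, 9.98, 9.97 and 10.17 in WT CD islets. The effect was 0.53 ± 0.146 in KO islets and 0.69 ± 0.134 in WT islets, and KO HFD 10 was the single HFD array within the CD range.

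**Figure D3:**
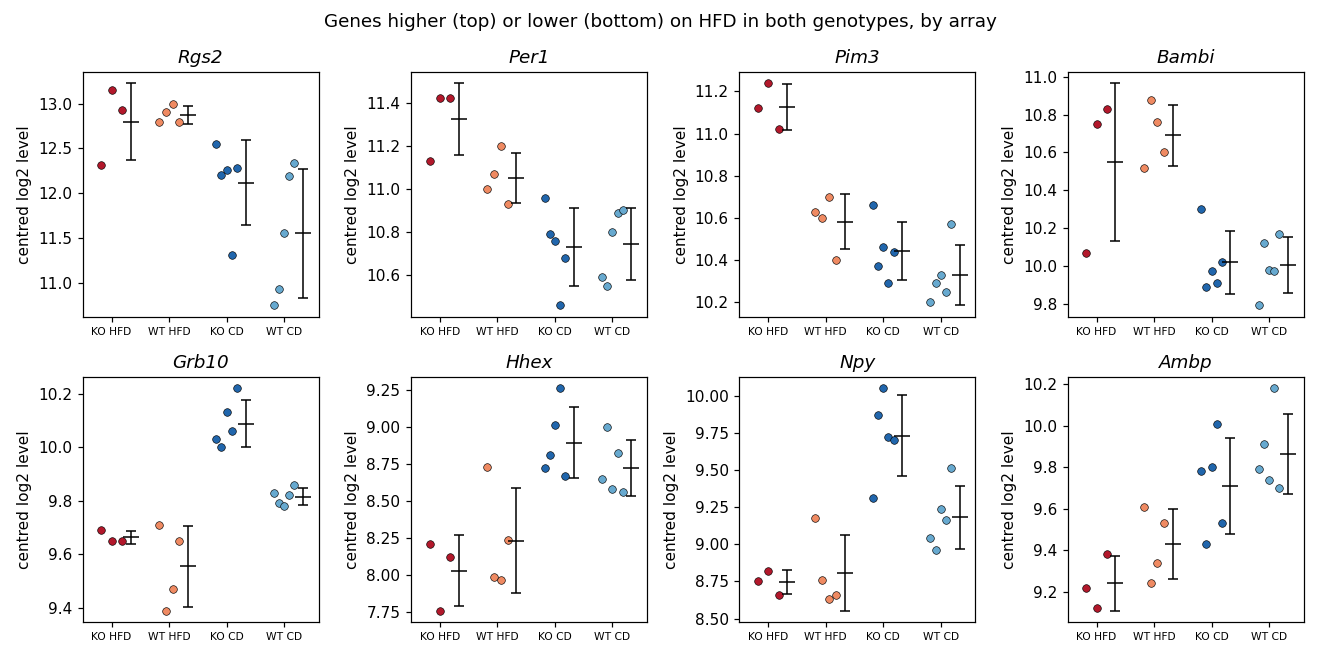
Centred log2 level of 8 shared genes on each array (points) with the group mean and SD (bars), for KO HFD, WT HFD, KO CD and WT CD islets. Rgs2, Per1, Pim3 and Bambi (top) were higher on HFD, and Grb10, Hhex, Npy and Ambp (bottom) lower, with Grb10 the one in which no HFD array reached a CD array of either genotype.

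The promoters of 3 of the risers are shown because Rgs2, Per1 and Errfi1 are genes of fast signal responses, and the cAMP response element is the DNA site through which cAMP acts on transcription. Each is the 250 bases before a RefSeq transcript start (build GRCm38.p6), 5′ to 3′ in the direction of the gene, with every match on either strand to the full cAMP response element TGACGTCA, its core TGACG or the E-box CACGTG in capitals. Per1 (chr11:69098699-69098948, plus strand) held 1 core and 1 E-box, Errfi1 (chr4:150854820-150855069, plus strand) 1 full element, in which the core matches on both strands, and Rgs2 (chr1:144004150-144004399, minus strand) 2 cores. A start was shown only if it held a motif set for that gene: the E-box for Per1, the full element for Errfi1 and the core for Rgs2. Per1 and Errfi1 have 2 starts each, and the first with the motif is shown. The presence of that motif was thus a condition of the choice and is not a result.
Per1: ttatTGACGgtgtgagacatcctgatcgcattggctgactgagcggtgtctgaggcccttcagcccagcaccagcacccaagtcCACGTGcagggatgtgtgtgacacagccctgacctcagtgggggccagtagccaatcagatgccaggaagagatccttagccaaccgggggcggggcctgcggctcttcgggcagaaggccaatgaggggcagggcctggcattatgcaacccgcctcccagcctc
Errfi1: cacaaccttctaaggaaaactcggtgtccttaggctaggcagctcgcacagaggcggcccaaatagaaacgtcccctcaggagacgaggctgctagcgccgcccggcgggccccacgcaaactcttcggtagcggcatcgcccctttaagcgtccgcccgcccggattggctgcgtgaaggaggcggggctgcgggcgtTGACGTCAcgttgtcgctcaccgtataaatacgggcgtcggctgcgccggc
Rgs2: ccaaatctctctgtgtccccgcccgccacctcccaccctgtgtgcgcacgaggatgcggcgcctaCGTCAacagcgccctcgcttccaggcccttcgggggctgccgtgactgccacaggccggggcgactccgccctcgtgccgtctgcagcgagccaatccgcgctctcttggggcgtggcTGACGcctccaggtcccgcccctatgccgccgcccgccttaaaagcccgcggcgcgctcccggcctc

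A RefSeq promoter was matched for 170 of the 212 higher and 257 of the 323 lower genes. Among these, and searching both strands, TGACGTCA stood before 3 of 170 genes higher on HFD (1.76%) and 4 of 257 lower (1.56%), against 276 of 11894 genes tested (2.32%). The core, which the full element contains, stood before 15.3% of the higher and 31.5% of the lower genes, against 25.2% of all. CACGTG stood before 5.29% of the higher and 8.17% of the lower genes, against 8.63% of all.

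Errfi1, which encodes an inhibitor of the EGF receptor, had levels of 13.26, 13 and 13.2 in KO HFD islets and 12.83, 12.65, 12.61 and 12.2 in WT HFD islets, against 12.83, 12.81, 12.63, 11.36 and 11.87 in KO CD islets and 12.18, 12.27, 12.17, 11.81 and 11.78 in WT CD islets. All KO HFD arrays lay above every other array, while the WT diets overlapped, with WT HFD 16 below WT CD 5. Its difference of 0.69 ± 0.183 (adjusted p = 0.0471) was called in 2 of 17 omissions of 1 array, those of WT HFD 7 and KO CD 1. Of 13 measured glucocorticoid-response genes, 3 were shared and higher, against 1.43% of all genes, and none was lower, with list medians of 0.32 in KO and -0.053 in WT islets. Besides Per1 these were Ddit4, an inhibitor of mTORC1 that is induced by stress, and Sgk1, a kinase that regulates ion transport. Ddit4 had levels of 11.34, 11.71 and 11.96 in KO HFD islets and 11.52, 11.68, 11.46 and 11.03 in WT HFD islets, against 11.38, 11.05, 11.05, 10.23 and 10.41 in KO CD islets and 10.78, 10.97, 10.7, 10.28 and 10.69 in WT CD islets. Every WT HFD array exceeded every WT CD array, while KO HFD 10 lay below KO CD 1. The difference was 0.79 ± 0.157 (adjusted p = 0.0232), with 0.84 ± 0.232 in KO islets and 0.74 ± 0.213 in WT islets (interaction adjusted p = 0.855), and the call was lost without KO HFD 17, KO HFD 18, WT HFD 8 or WT HFD 9. Sgk1 differed by 0.44 ± 0.0922 (adjusted p = 0.0282), with a larger change in KO islets, at 0.82 ± 0.136 in KO islets and 0.063 ± 0.125 in WT islets (interaction adjusted p = 0.0179), and the call was lost without WT HFD 8 or WT HFD 9. Fkbp5 and Tsc22d3, other targets of the glucocorticoid receptor, differed by 0.19 (adjusted p = 0.204) and -0.013 (adjusted p = 0.925).

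Further risers were Trib1, a pseudokinase, at 0.56 ± 0.101 (adjusted p = 0.0148), Ankrd34b at 0.60 ± 0.114 (adjusted p = 0.019), Stc1, a secreted glycoprotein, at 0.40 ± 0.0838 (adjusted p = 0.0282), and Txnip, a glucose-induced inhibitor of thioredoxin, at 0.39 ± 0.103 (adjusted p = 0.048). The call of Trib1 was lost without KO HFD 17, and those of Ankrd34b and Stc1 without KO HFD 17, WT HFD 8 or WT HFD 9. Txnip was called in 3 of 17 omissions, those of KO HFD 10, WT HFD 7 and KO CD 1. It was the 1 of 12 glucose-induced genes that was called, with a list median of 0.039. Grhl1, an epithelial transcription factor, differed by 0.31 ± 0.0615 (adjusted p = 0.0235), and its HFD arrays lay above its CD arrays in each genotype. Btg1, which slows cell proliferation, differed by 0.23 ± 0.0492 (adjusted p = 0.0291), with 0.36 ± 0.0725 in KO islets and 0.098 ± 0.0666 in WT islets. The call of Btg1 held in 12 of 17 omissions. Smaller rises whose diets did not overlap within either genotype included Ift43, an intraflagellar transport protein (0.14), Epb42, a red cell membrane protein (0.20), and Dock3, a guanine nucleotide exchange factor (0.21). They were called in 3 of 17, 13 of 17 and 9 of 17 omissions.

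Many of the higher genes were dim. Olfactory receptor genes, which act mainly in the nose, set a level of 7.51 (their 95th percentile) as a guide to background, and 129 of the 212 higher genes (60.8%) lay below it, against 25 of the 323 lower genes (7.74%) and 31.8% of all. The median level was 7.07 for the higher, 9.12 for the lower and 8.52 for all genes. Of 718 olfactory receptor genes, 11 were shared and higher and none lower, a share near the 1.43% of all genes, with a list median of 0.097. The non-overlapping risers Scgb1b2 (0.35), Fgfbp1 (0.30), Oscar (0.26) and Vwa3a (0.16) were below that level too. So were Epb42 and, among the lower genes described here, Vcan, Edil3 and Fstl5. With dim genes left out, 132 genes were higher and 446 lower.

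Alpha and delta cell identity was the list with the highest share of shared lower genes among the lists examined: 5 of 11 measured members, against 2.17% of all genes, with none higher. The list median was -0.21 against -0.018 over all genes, with -0.36 in KO and -0.077 in WT islets. Of the 11, 6 had 1 direction in both genotypes, against 46.8% of all genes. Hhex, a transcription factor of delta cells, had levels of 8.21, 7.76 and 8.12 in KO HFD islets and 8.73, 7.99, 7.97 and 8.24 in WT HFD islets, against 8.72, 8.81, 9.01, 9.26 and 8.67 in KO CD islets and 8.65, 9, 8.58, 8.82 and 8.56 in WT CD islets. KO HFD arrays lay below all KO CD arrays, whereas WT HFD 7 lay within the WT CD range. The difference was -0.68 ± 0.116 (adjusted p = 0.0129), with -0.87 ± 0.171 in KO islets and -0.49 ± 0.157 in WT islets. Rbp4, the carrier of retinol in blood and a delta cell transcript in mouse, differed by -0.45 ± 0.0819 (adjusted p = 0.017), and Ghsr, the ghrelin receptor of delta cells, by -0.24 ± 0.0581 (adjusted p = 0.0402). Pou3f4 and Irx1, transcription factors of alpha cells, differed by -0.70 ± 0.142 (adjusted p = 0.0241) and -0.25 ± 0.0633 (adjusted p = 0.0427). Hhex and Rbp4 were called in every omission of 1 array, Pou3f4 in 13 of 17, Ghsr in 6 of 17 and Irx1 in 5 of 17. Ghsr and Irx1 also lost their calls with the acinar enzyme covariate. Of these 5 genes, Hhex alone kept its call in the additive model, which has no genotype by diet term. Rbp4 differed by -0.69 ± 0.121 in KO islets and -0.20 ± 0.111 in WT islets (WT adjusted p = 0.528). Ghsr differed by -0.37 ± 0.0856 in KO islets and -0.11 ± 0.0786 in WT islets, and Irx1 by -0.43 ± 0.0933 in KO islets and -0.077 ± 0.0857 in WT islets. In bulk islets, fewer cells of a type and less RNA per cell cannot be told apart. The hormones of these cells did not pass the test: Sst differed by -0.19 ± 0.067 (adjusted p = 0.0918) and Gcg by -0.028 ± 0.0333 (adjusted p = 0.603). Both transcripts lay near the top of the array's range, which limits what could be detected. In KO islets alone Sst was called, at -0.36 ± 0.0986 (adjusted p = 0.0163), against -0.014 ± 0.0906 in WT islets. Sst was lowest in KO HFD 10, at 13.32, and without that array its diet effect over both genotypes was -0.091.

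Npy, which encodes neuropeptide Y, had levels of 8.75, 8.82 and 8.66 in KO HFD islets and 9.18, 8.76, 8.63 and 8.66 in WT HFD islets, against 9.31, 9.87, 10.05, 9.72 and 9.7 in KO CD islets and 9.04, 8.96, 9.24, 9.16 and 9.51 in WT CD islets. The 7 HFD arrays lay between 8.63 and 9.18, and KO CD islets had the highest levels. The difference was -0.68 ± 0.104 (adjusted p = 0.0129), a level 1.6-fold lower on HFD, and it was the 1 call among 18 neuropeptide genes. Gpm6a, a neuronal membrane glycoprotein, differed by -0.69 ± 0.124 (adjusted p = 0.0148), Fstl5, a follistatin-like secreted protein, by -0.58 ± 0.0804 (adjusted p = 0.00963), and Stmn2, a microtubule regulator of neurons, by -0.75 ± 0.194 (adjusted p = 0.0453). Stmn2 was called in 4 of 17 omissions.

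Cadm1, an adhesion molecule of islet cells, differed by -0.40 ± 0.067 (adjusted p = 0.0129), Vcan, a matrix proteoglycan, by -0.37 ± 0.0644 (adjusted p = 0.0134), Edil3, an integrin-binding matrix protein, by -0.48 ± 0.0828 (adjusted p = 0.0129) and Cldn6, a tight junction protein, by -0.51 ± 0.089 (adjusted p = 0.0137). Vcan had levels of 6.34, 6.71 and 6.75 in KO HFD islets and 7.01, 6.61, 6.75 and 6.91 in WT HFD islets, against 7.01, 7.08, 7.01, 7.22 and 7.16 in KO CD islets and 7.01, 7.03, 7.04, 7.14 and 7.1 in WT CD islets. The highest HFD array lay below the lowest CD array by less than the rounding, both at 7.01. No gene of 23 collagen and matrix genes and none of 16 pericyte and fibroblast genes was called. Of 18 endothelial genes 1, Pecam1, was called, at -0.17 ± 0.0417 (adjusted p = 0.0432), and the call held in 4 of 17 omissions and under neither quantile nor cyclic loess normalization. Ambp, a plasma protein precursor, had levels of 9.22, 9.12 and 9.38 in KO HFD islets and 9.61, 9.24, 9.34 and 9.53 in WT HFD islets, against 9.78, 9.43, 9.8, 10.01 and 9.53 in KO CD islets and 9.79, 9.91, 9.74, 10.18 and 9.7 in WT CD islets. Its diets did not overlap within either genotype, and the effect was -0.47 ± 0.13 in KO islets and -0.43 ± 0.119 in WT islets (interaction adjusted p = 0.905). Ehf, an epithelial transcription factor, fell with -0.52 ± 0.111 in KO islets and -0.40 ± 0.102 in WT islets. Il6st, the shared receptor subunit gp130, differed by -0.21 ± 0.0478 (adjusted p = 0.0354), Sertad3 by -0.36 ± 0.0618 (adjusted p = 0.0129), Gstm2, a glutathione transferase, by -0.25 ± 0.0539 (adjusted p = 0.0323), Nudt7, a peroxisomal hydrolase, by -0.23 ± 0.0463 (adjusted p = 0.0232), and Lats2, a Hippo pathway kinase, by -0.18 ± 0.0417 (adjusted p = 0.0361). In none of these 5 did the diets overlap within either genotype. In KO islets the gap was less than the rounding for Gstm2, at 10.18, and for Lats2, at 8.49. Their calls held in 10 of 17, 17 of 17, 9 of 17, 13 of 17 and 9 of 17 omissions, in the order named. Il6st and Lats2 lost their calls when arrays were centred on the genes tested. Il6st also lost its call under quantile and cyclic loess normalization.

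Mthfd2 and Aldh1l2, enzymes of the mitochondrial folate cycle, differed by -0.41 ± 0.0881 (adjusted p = 0.0308) and -0.57 ± 0.116 (adjusted p = 0.0241), and Sesn2, a leucine sensor that restrains mTORC1, by -0.39 ± 0.0808 (adjusted p = 0.0261). The interaction was called for none of these 3. Their diet effects were called in 10 of 17, 13 of 17 and 12 of 17 omissions, in the order named. Aldh1l2 had levels of 10.3, 9.94 and 9.45 in KO HFD islets and 10.45, 10.13, 9.83 and 10.11 in WT HFD islets, against 10.74, 10.57, 10.61, 10.45 and 10.52 in KO CD islets and 10.77, 10.85, 10.6, 10.21 and 10.54 in WT CD islets. HFD arrays were the lower ones apart from an overlap with WT CD 14 in WT islets. In the unfolded protein response list, 2 of 27 measured genes were shared and lower, Sesn2 and Pdia4, and 1 higher, Herpud1, against 2.17% and 1.43% of all genes. Pdia4 (-0.18) and Herpud1 (0.22) changed mainly in KO islets, and both passed the interaction test.

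Of 26 proteasome genes, 4 were shared and lower, against 2.17% of all genes, with a list median of -0.11: Psmc5 (-0.21), Psmb7 (-0.23), Psma1 (-0.27) and Psmd8 (-0.14). They were called in 7 of 17, 4 of 17, 3 of 17 and 3 of 17 omissions, and in WT islets alone their differences were -0.068, -0.11, -0.12 and -0.021, none of them called. The list's median was -0.23 in KO and 0.039 in WT islets. Of 25 mitochondrial ribosome genes, 2 were shared and lower, against the same 2.17%, Mrps10 at -0.32 ± 0.0486 (adjusted p = 0.0129) and Mrpl43 at -0.20 ± 0.0424 (adjusted p = 0.0291), and the list median was -0.23 in KO and 0.038 in WT islets. Mrpl43 had a WT difference near 0 (-0.39 ± 0.0625 in KO islets and -0.0031 ± 0.0574 in WT islets). Of 21 interferon-response genes, 2 were shared and lower, again against 2.17%, Ifit1 (-0.49) and Ifih1 (-0.25), called in 3 of 17 and 6 of 17 omissions. Ifih1 differed by -0.47 ± 0.0877 in KO islets and -0.028 ± 0.0805 in WT islets.

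Genes at the centre of beta cell function were not called for the diet effect averaged over the genotypes. None of 19 beta cell transcription factors, 7 hormone genes or 14 granin and processing genes was called. This stands against 4.15% of all genes, a share at which lists this small would hold few calls or none. Ins2 differed by 0.084 ± 0.0284 (adjusted p = 0.0796), Iapp by 0.078 ± 0.031 (adjusted p = 0.122), Pdx1 by -0.22 ± 0.0821 (adjusted p = 0.099), Mafa by -0.17 ± 0.089 (adjusted p = 0.225) and Glp1r by 0.074 ± 0.0401 (adjusted p = 0.233). Each of these 5 passed under 1 to 4 of the alternative settings. In KO islets alone Pdx1 was called, at -0.43 ± 0.121 (adjusted p = 0.0181), against -0.015 ± 0.111 in WT islets. Ins2, Iapp, Mafa and Glp1r were called in neither genotype. Levels of Ins2, Iapp and Glp1r lay near the top of the array's range, which limits what could be detected. Gipr (-0.034), Ppy (-0.0014) and the proliferation gene Mki67 (0.014) lay near 0. Of 28 cell cycle genes, 2 were called, both lower by the averaged effect, against 4.15% of all genes. Their directions were opposite in the genotypes, so no cell cycle gene was shared.

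The number of shared genes moved with single arrays. Leaving out 1 array gave 10 to 708 higher and 28 to 1653 lower genes, with the highest counts without WT HFD 7 and the lowest without WT HFD 9. Of the 89 called genes examined singly, 54 lost their call without WT HFD 9, 53 without KO HFD 17, 51 without WT HFD 8, 44 without KO HFD 18, 35 without WT HFD 16, 34 without KO CD 12 and as many without WT CD 5, 29 each without WT CD 6 and 15, at most 22 without any other array, and none without WT HFD 7 or KO CD 1. The core that was called with 1 direction in every one of the 17 omissions held 33 genes, 8 higher and 25 lower. Among them were Pim3, Bambi, Per1, Grb10, Npy, Hhex, Fstl5, Cadm1, Gpm6a, Rbp4, Rpe, an enzyme of the pentose phosphate pathway, Tmem126b, an assembly factor of respiratory complex I, and Glce, an enzyme of heparan sulfate synthesis. The KO effect was larger than the WT effect in 32 of the 33, which again partly follows from choosing genes by the mean effect. Of the 33, 7 passed the interaction test, against 14.8% of all genes. The diets' arrays did not overlap within either genotype for 10 of the 33, and 8 lay below the background guide of 7.51.

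**Figure D4:**
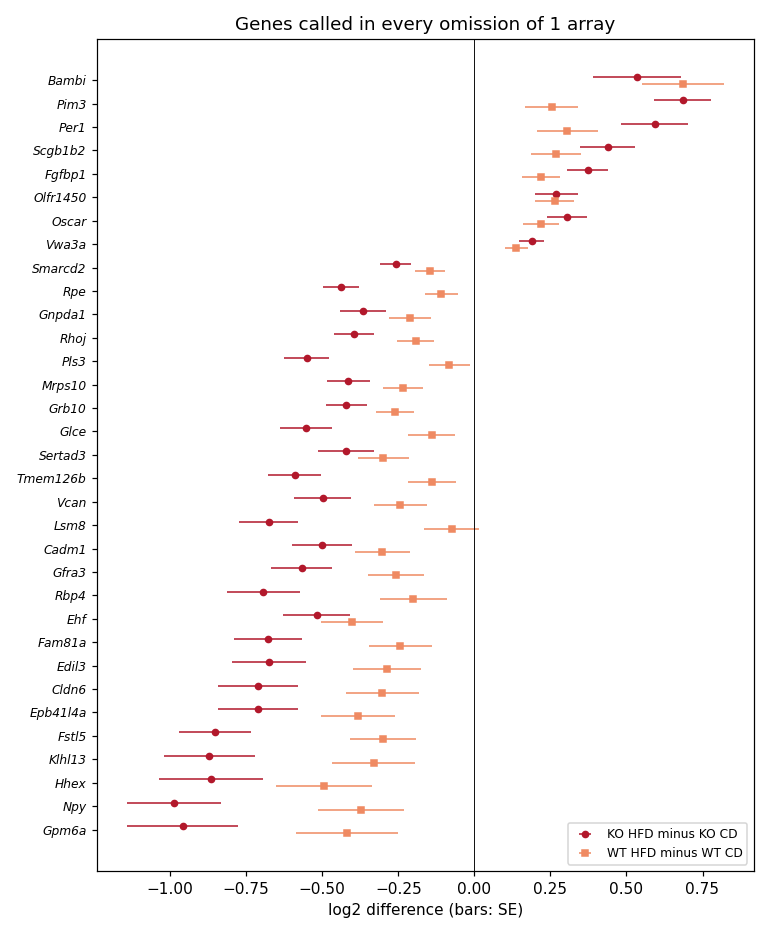
Diet difference (log2, HFD minus CD; bars, SE) in KO islets (circles) and WT islets (squares) for the 33 genes called in every omission of 1 array. Bambi is the one with a larger difference in WT islets (0.53 in KO and 0.69 in WT islets), and Lsm8 has the WT difference closest to 0 (-0.075).

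**Figure D5:**
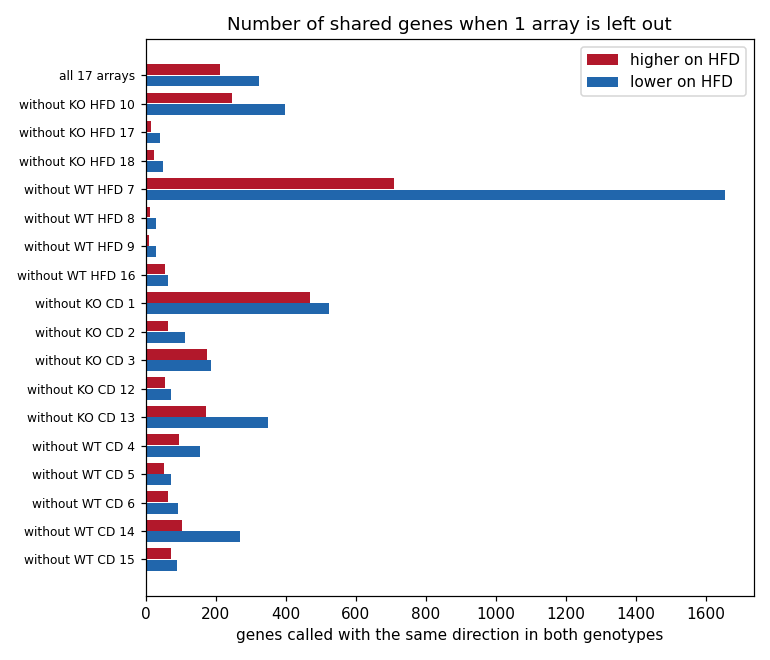
Number of genes called higher (red) or lower (blue) on HFD in both genotypes with all 17 arrays and with each array left out. The counts run from 10 and 28 without WT HFD 9 to 708 and 1653 without WT HFD 7.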

How the data were processed

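Islet RNA was hybridised to Mouse Exon 1.0 ST arrays. The deposited gene-level values are log2 expression, made by the authors with RMA (background correction, quantile normalization and probe summary) in Affymetrix Expression Console 1.3; exon-level values were not used here. Of 23332 transcript clusters, 14996 carried 1 gene symbol, 1019 several and 7317 none. The brightest single-symbol cluster was kept for each of 14860 genes, on 17 arrays, and each array was centred on its median. Arrays number 3 to 5 per group, which limits the precision.

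A linear model with 4 group means was fitted in limma 3.58.1 (R 4.3.3) with empirical Bayes moderation, and p-values were adjusted over all genes by Benjamini-Hochberg. The diet effect averaged both genotypes. The both-genotype test took the larger p of the 2 genotypes for genes with 1 direction. On simulated arrays with 200 changed genes of 14860, 74.2% of those with a log2 difference of 0.3, 91.0% at 0.5 and 100% at 1 were recovered for the diet effect. The simulated noise was independent between genes and arrays, without interaction, and so held no variation shared by many genes of an array. The median shared differences here, 0.20 and -0.26, were smaller in size than any simulated. Recovery in the real data can therefore be lower. Named genes were a fixed set of islet genes and Grb10, the 12 largest rises and falls whose diets did not overlap within either genotype, and up to 4 called members of each list. Pim3, Trib1, Errfi1, Ankrd34b, Stc1, Gpm6a, Ehf, Aldh1l2, Mthfd2, Irx1, Fkbp5, Tsc22d3 and the core genes outside the rule were chosen after their values were seen. The members and lists were chosen with earlier results of these data known. Promoters came from RefSeq. Figures were drawn in matplotlib 3.10.9. The closing section gives the alternatives.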

Additional observations from a re-analysis of the deposited data

Results flagged for a closer look

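Among the 100 genes examined, 21 had a diet difference that differed between genotypes by the interaction test, an adjusted p under the threshold in limma. Of all genes, 14.8% passed that test. The KO diet difference minus the WT diet difference was, on the log2 scale, Cwc15 (-0.46), Fads1 (-0.28), Ffar4 (-0.44), Fstl5 (-0.55), Glce (-0.41), Gpx3 (-0.67), Herpud1 (0.33), Ifih1 (-0.45), Lsm8 (-0.60), Matn2 (-0.60), Mrpl43 (-0.39), Oat (0.43), Olfr1389 (0.46), Pdia4 (-0.31), Pim3 (0.43), Pls3 (-0.47), Psmd8 (-0.23), Rpe (-0.33), Sgk1 (0.75), Tmed9 (-0.50) and Tmem126b (-0.45). For Sgk1 the difference was 0.82 in KO and 0.06 in WT islets, and for Oat, ornithine aminotransferase, it was -0.06 in KO and -0.48 in WT islets. Oat was the one in this list with the larger change in WT islets.

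Single arrays lay far from the rest of their group in 10 of 300 gene and group pairs, a kind of gap that chance gives in about 1 in 20 groups. In WT CD islets, Anxa2 was 8.66 on array 14, against 8.12 to 8.27 on the others. In KO CD islets, Fstl5 was 7.75 on array 12, against 7.17 to 7.26 on the others. In WT HFD islets, Ifih1 was 8.81 on array 7, against 8.5 to 8.55 on the others. In WT CD islets, Igfbp5 was 9.37 on array 14, against 8.92 to 9 on the others. In WT CD islets, Ins2 was 13.74 on array 14, against 13.8 to 13.82 on the others. In WT HFD islets, Mafa was 11.38 on array 7, against 10.94 to 11 on the others. In KO CD islets, Mrps10 was 8.94 on array 12, against 8.79 to 8.81 on the others. In WT HFD islets, Pls3 was 9.52 on array 7, against 9.19 to 9.22 on the others. In WT HFD islets, Ppy was 14.24 on array 8, against 14.36 to 14.38 on the others. In KO CD islets, Rgs2 was 11.31 on array 12, against 12.2 to 12.55 on the others.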

How the results depend on the processing

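No paired analysis was possible because no islet number occurs in more than 1 group. The main analysis gave 212 higher and 323 lower shared genes. The higher and lower counts were 124 and 2353 on deposited values without centring, 12 and 16 in the additive model, 1048 and 2037 with array weights, and 1 and 2 at a threshold of 0.01. The higher count was 1558 when centred on the median of the genes tested and 132 without dim genes, and the lower count was 176 with the acinar enzyme mean as a covariate. Quantile normalization kept 328 of the 535 genes, cyclic loess 303 and all 18 arrays 425. Omission of 1 array gave 10 to 708 higher and 28 to 1653 lower genes. One or both counts moved over 1.5 times without each array except KO HFD 10 and KO CD 13. The both-genotype test called 0 genes under every alternative run. It could not be made with the additive model. No called gene named here changed sign under any alternative. Gcg, Gipr, Mki67 and Ppy, none of them called, did. The diet effect of Gcg was 0.034 when centred on the genes tested and -0.050 to 0.0072 over omissions. The diet effect of Gipr was 0.028 when so centred and -0.079 to 0.0014 over omissions. The diet effect of Mki67 was -0.056 without centring, -0.057 with quantile and -0.068 with cyclic loess normalization, -0.0291 with islet number range as a term, -0.080 with the acinar covariate and -0.14 to 0.11 over omissions. The diet effect of Ppy was 0.061 when centred on the genes tested, 0.0012 with all 18 arrays, 0.0031 in the additive model and -0.028 to 0.040 over omissions. Ins2, Sst, Pdx1, Iapp, Mafa, Glp1r, Gnaz and Gcg, not called here, passed under 1 to 4 alternatives each. Without KO HFD 17, WT HFD 8 or WT HFD 9 the calls of Grhl1 and Ambp were lost, as were those of Pou3f4, Aldh1l2, Nudt7 and Sesn2, which were also lost without KO HFD 18, and that of Sesn2 without WT HFD 16. The causes were not tested. The omission of both KO CD 13 and WT CD 14 was chosen after seeing the data. Values near the array's floor or top limit what could be detected.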

Other observations

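Several gene groups had median diet differences of opposite sign in the genotypes. The counts that follow stand against 14.8% of all genes past the interaction test and 46.8% with the same direction in both genotypes. Of 21 other acinar cell genes, none had the same direction in both genotypes and 17 passed the interaction test, with a list median of 0.57 in KO and -1.38 in WT islets. Cholesterol synthesis genes had a median of -0.32 in KO and 0.14 in WT islets, with 1 of 18 in the same direction and 8 past the interaction test. Genes of N-glycosylation had medians of -0.25 in KO and 0.061 in WT islets, with 14 of 25 past the interaction test. ER to Golgi transport genes had medians of -0.18 in KO and 0.066 in WT islets, with 11 of 23 past it.

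Ffar4, a receptor for long-chain fatty acids, differed by -0.34 ± 0.0702 (adjusted p = 0.0278) and Gpx3, a secreted glutathione peroxidase, by -0.39 ± 0.0831 (adjusted p = 0.0291). Both fell mainly in KO islets, at -0.56 against -0.12 in WT islets for Ffar4 and -0.72 against -0.056 for Gpx3. In KO HFD 10, Gpx3 was 11.36, against 11.84 and 12.19 on the other KO HFD arrays. Lpl, lipoprotein lipase, differed by -0.30 ± 0.0763 (adjusted p = 0.0446), with -0.52 ± 0.112 in KO islets and -0.081 ± 0.103 in WT islets. The call of Lpl held in 5 of 17 omissions. No other adipocyte gene of 12 measured was called, and the list median was 0.12.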
